A study of Rattus norvegicus with 8 samples.

Results

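The apolipoprotein genes Apoa1, Apoa2, Apoa4, Apoa5, Apob, Apoc1, Apoc2, Apoc3 and Apoe and the hepatic lipase gene Lipc were followed in rat liver. All array probe sets whose annotation names exactly 1 gene, that gene being 1 of these 10, were taken, which gave 12 probe sets of 31042 and 10 genes of 14217. Livers came from male Sprague-Dawley rats aged 7 weeks. Arrays are labelled as biological replicates, and each is taken here as 1 rat. The diet groups held more rats than there are arrays. The L. brevis group (4 arrays) had the rodent chow CRF-1 for 2 weeks, enriched with cholesterol at 10 g and cholic acid at 5 g in each kg. Its chow also held Lactobacillus brevis 119-2, a lactic acid bacterium from turnip, given live and freeze-dried at 10 g in each kg. The control group (4 arrays) ate the same cholesterol and cholic acid chow without the bacterium, as the design text states, although the source label of these arrays names CRF-1 chow only. Every rat is therefore a cholesterol-fed rat under the design text, and no liver on plain chow was analysed here. The series is about hepatic cholesterol, and the comparison asks whether the strain changed the liver's transcripts for lipoprotein proteins.

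Lipoproteins are particles of lipid and protein that carry cholesterol and triglyceride through blood. Apolipoproteins form their shell, bind receptors and switch plasma lipases on or off, and the liver makes most of them. Hepatic lipase, bound at the liver's vessel walls, hydrolyses triglyceride and phospholipid of remnant particles and HDL. Cholic acid in the diet promotes sterol uptake from the gut, and bile acids act on the liver through the receptor FXR.

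Values are log2 signals as deposited, and a difference is L. brevis minus control, so that 1 unit is a doubling of signal. A probe set is called varying where its 8 values span more than 0.01 log2 and flat otherwise. Of the 31042 probe sets that are not array controls, 24719 were flat, with the same or nearly the same value on all arrays. A flat value carries no measured difference, and how it came about was not tested. Array medians lay between 6.61 and 6.63, and precision is limited by there being 8 arrays. The array control probe sets for the 5' and 3' ends of GAPDH, a common gauge of RNA and labelling quality, differed between rats: the 5' minus 3' signal was -2.20, -1.30, -0.94 and -0.68 log2 in L. brevis 1 to 4 and -2.89, -1.83, -2.93 and -1.98 log2 in control 1 to 4. L. brevis 2, 3 and 4 thus lay above every control, so diet and this signal cannot be fully told apart. L. brevis 2 also stood apart in skeletal muscle markers, whose mean signal over 6 genes was 8.12 there, 5.94 to 6.0 in the other L. brevis livers and 5.90 to 5.99 in control livers. Its erythroid markers were also highest, at a mean of 10.23 over 4 genes, beside 8.61 to 9.11 in the other L. brevis livers and 8.67 to 9.40 in control livers. The hepatocyte marker list averaged 12.18 to 12.38 in L. brevis and 12.10 to 12.28 in control livers over 8 genes, and albumin, Alb, was flat at 14.55. Among these 8 was F3, the tissue factor gene, taken through a shared alias in place of transferrin, Tf. F3 is not a hepatocyte marker and was flat at 6.07, which lowers every mean of this list.

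No member passed the test of a diet difference. In limma fitted to all probe sets, 0 of the 10 genes had an adjusted p under 0.05, a rule that called 0.142% of all probe sets. Of the 44 probe sets behind that share, 37 were flat and carry no measured difference. Over varying probe sets alone 0 members were called as well, against 0.0633% of those probe sets. Of the 8 members whose brightest probe set varied, 4 were higher and 4 lower, with a median difference of -0.00083, beside a median of -0.020 over all 6323 varying probe sets. Lipc was the only 1 of these 8 at an unadjusted p under 0.05. Counted by probe set, 2 of the 9 varying member probe sets were at that level, beside 22.9% of all varying probe sets. At the brightest probe sets the diets overlapped for all 8, where 11.3% of varying probe sets did not overlap (4.21% higher and 7.09% lower). Of the 9 varying member probe sets, 1 was separated, the dimmer 1 of Apob. With so few members, neither count can be read as a result about them. In whole liver, fewer cells of a type and less RNA per cell cannot be told apart.

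**Figure D1:**
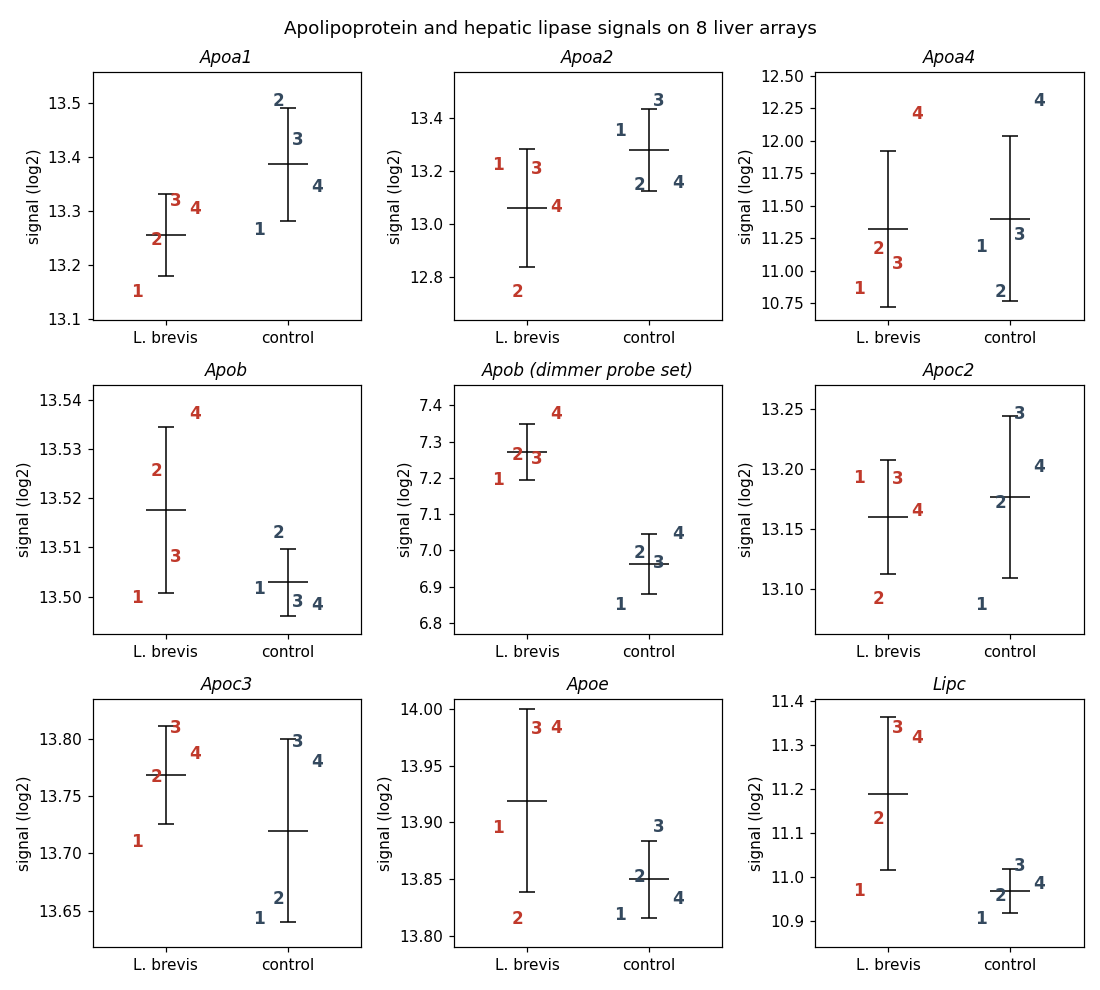
Signals (log2) of the 9 varying probe sets of apolipoprotein genes and Lipc, L. brevis left and control right, each digit being a rat's replicate number at its value and the bars the mean and SD (n = 4 each). Each panel has its own scale, which spans 0.039 log2 for the brighter Apob probe set and 1.47 for Apoa4, and the diets separate only at the dimmer Apob probe set.

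Most of the group sat near the top of the array's signal scale. The brightest probe set of 7 of the 10 genes had a mean above 13, as 72 of 31042 probe sets did, and the lowest of the 10, Lipc, stood at the 98.3 percentile of all probe sets. Of those 72, 15 were flat, Apoc1 among them. The 57 that varied had a median SD within diets of 0.085 log2, against 0.22 for the 905 varying probe sets with a mean above 10 and up to 13. Whether bright signals were compressed by saturation was not tested, and it bears on every small difference below. Within the 57, Apob ranked at the 3.51 percentile of spread, Apoc2 at 29.8, Apoe at 33.3, Apoc3 at 35.1, Apoa1 at 56.1 and Apoa2 at 84.2. Among the 905 of intermediate signal Lipc ranked at the 22.7 percentile and Apoa4 at 90.8.

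**Figure D2:**
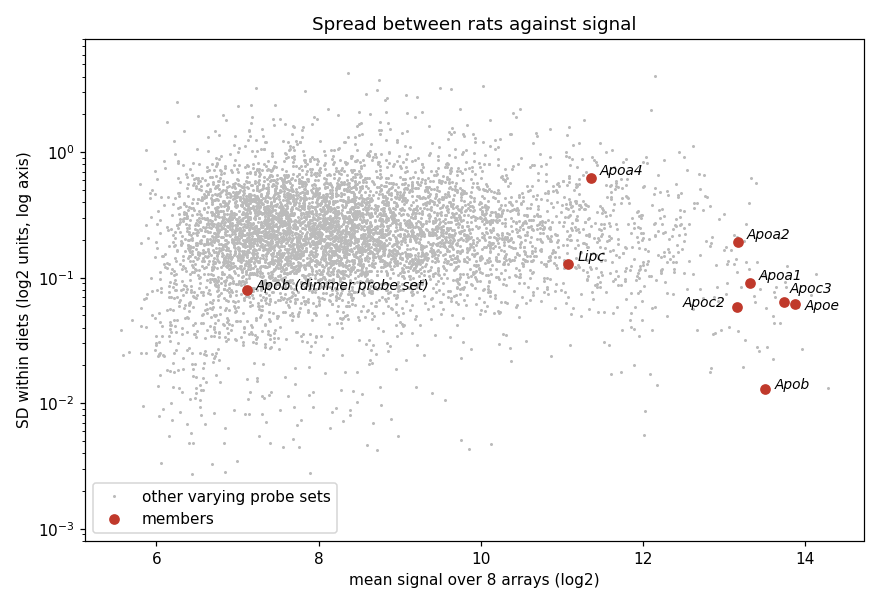
SD within diets (log2 units, log axis) against mean signal over 8 arrays (log2) for all varying probe sets (grey) and the 9 of apolipoprotein genes and Lipc (red). Apoa4 varied most between rats, and 6 of the 7 members above a signal of 13 are shown low and to the right, the flat Apoc1 having no point.

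Apoa1 and Apoa2 encode the main structural proteins of HDL, and Apoa1 also activates LCAT, the plasma enzyme that esterifies cholesterol. Apoa1 had signals of 13.15, 13.25, 13.32 and 13.30 in L. brevis 1 to 4 and 13.27, 13.50, 13.43 and 13.34 in control 1 to 4. All 4 L. brevis values lay below 3 of the controls, with control 1 inside the L. brevis range. The difference was -0.13 (SE 0.06, 95% interval -0.29 to 0.02), 1.10-fold lower, with an adjusted p of 0.525 in limma and an exact permutation p of 0.114. With the GAPDH 5' minus 3' value added as a covariate the Apoa1 difference was larger, at -0.24 (SE 0.07, adjusted p = 0.805, limma). Apoa2 had 13.22, 12.75, 13.21 and 13.07 in L. brevis 1 to 4 and 13.35, 13.15, 13.47 and 13.16 in control 1 to 4. L. brevis 2 and 4 lay below all controls, and L. brevis 1 and 3 lay among them. The difference was -0.22 (SE 0.13, 95% interval -0.54 to 0.11; adjusted p = 0.592, limma; exact permutation p = 0.171). Without L. brevis 2, the liver with muscle signal, it was -0.11, and with the GAPDH covariate it was -0.05. Against the GAPDH 5' minus 3' signal Apoa2 had a Pearson r of -0.68 over the 8 livers (exact permutation p = 0.0561, adjusted over 9 relations 0.126). Its Spearman rho was -0.81 (exact permutation p = 0.0218, adjusted 0.0980). The r was -0.57 without the 2 livers farthest from the median GAPDH value and -0.49 for deviations from diet means. For every relation to GAPDH, here and below, the permutations ran over all 8 livers regardless of diet. Each such p therefore also takes in the diet split of the GAPDH value.

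Apob encodes the protein that gives VLDL, chylomicrons and LDL their frame, 1 molecule per particle, and rat liver edits part of its transcript through Apobec1 to make the shorter ApoB-48. Both of its probe sets varied, and they gave different sizes of difference. At the brighter Apob probe set the values were 13.50, 13.53, 13.51 and 13.54 in L. brevis 1 to 4 and 13.50, 13.51, 13.50 and 13.50 in control 1 to 4. The whole span was 0.039 log2, and the difference of 0.015 (SE 0.009, adjusted p = 0.594, limma) had a 95% interval of -0.0071 to 0.037. That fit includes the flat probe sets, and over varying probe sets alone the SE was 0.030 (unadjusted p = 0.643, limma). Against the GAPDH 5' minus 3' signal this probe set had a Pearson r of 0.77 (exact permutation p = 0.0233, adjusted 0.0699). Its Spearman rho was 0.76 (exact permutation p = 0.0368, adjusted 0.110).

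At the dimmer Apob probe set the values were 7.19, 7.26, 7.25 and 7.38 in L. brevis 1 to 4 and 6.85, 6.99, 6.97 and 7.05 in control 1 to 4. Every L. brevis liver lay above every control. The difference was 0.31 (SE 0.06, 95% interval 0.17 to 0.44), 1.24-fold higher. In limma over all probe sets its unadjusted p was 0.00137 and its adjusted p 0.243, and the adjusted p was 0.115 over varying ones. The exact permutation p was 0.0286, the smallest that 4 against 4 can give. This probe set stood at the 65.2 percentile of signal, and which stretch of the long Apob transcript it reads was not examined here. Its signal rose with the GAPDH 5' minus 3' signal over the 8 livers (Pearson r = 0.88, exact permutation p = 0.00551, adjusted over 9 relations 0.0426). The Spearman rho was 0.86 (exact permutation p = 0.0107, adjusted 0.0964), and the permutations took no account of diet. The r was 0.82 without the 2 livers farthest from the median GAPDH value and 0.79 for deviations from diet means, and 4 livers per diet are too few for an r within each. With that signal as a covariate the difference was 0.19 (SE 0.05, unadjusted p = 0.0151, adjusted p = 0.805, limma).

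Apoc1, Apoc2, Apoc3 and Apoa5 act on the clearance of triglyceride-rich particles: Apoc2 is the cofactor of lipoprotein lipase, Apoc3 restrains lipolysis and remnant uptake, Apoc1 restrains receptor uptake, and Apoa5 favours lipolysis. Apoc1 was flat at 13.57 and Apoa5 flat at 11.67 on all 8 arrays, so neither carries a measured difference. Apoc2 had 13.19, 13.09, 13.19 and 13.16 in L. brevis 1 to 4 and 13.09, 13.17, 13.25 and 13.20 in control 1 to 4. The lowest value of each diet was the same to 2 decimals, and the difference was -0.02 (SE 0.04, 95% interval -0.12 to 0.08; adjusted p = 1.00, limma). Apoc3 had 13.71, 13.77, 13.81 and 13.79 in L. brevis 1 to 4 and 13.64, 13.66, 13.80 and 13.78 in control 1 to 4. Control 1 and 2 were the lowest livers, while control 3 and 4 lay among the L. brevis livers. The Apoc3 difference was 0.05 (SE 0.04, 95% interval -0.06 to 0.16; adjusted p = 0.750, limma). For both genes the interval leaves out differences beyond 0.2 log2 in either direction on the deposited scale.

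Apoa4, a protein of chylomicrons and HDL made by gut and, in rodents, liver, was the most variable member. Its signals were 10.86, 11.17, 11.06 and 12.21 in L. brevis 1 to 4 and 11.18, 10.84, 11.28 and 12.31 in control 1 to 4. The lowest and highest liver differed 2.77-fold, and in each diet the rat numbered 4 was about 1 log2 above the other three. The labels give no meaning to a shared number. The diet difference was -0.08 (SE 0.43, 95% interval -1.13 to 0.97; adjusted p = 1.00, limma; exact permutation p = 0.743), which turned to 0.22 with control 4 left out, 0.074 with L. brevis 1 and 0.0098 with L. brevis 3 left out, and was -0.61 with the GAPDH covariate. With same-numbered livers fitted as a block, the Apoa4 difference was -0.08 with an SE of 0.14 (unadjusted p = 0.606, limma). The gene with the most similar course over the 8 arrays was Slc23a1, a vitamin C transporter (r = 0.96), followed by Abca1, the exporter that loads cholesterol onto ApoA-I (r = 0.95), among 2263 genes with an SD of at least 0.2. At its brightest probe set Abca1 stood at 10.23, 10.34, 10.55 and 11.32 in L. brevis 1 to 4 and 10.70, 10.41, 10.68 and 11.22 in control 1 to 4. It was thus also highest in the 2 rats numbered 4, and how far these 2 rats set the r was not tested.

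Apoe encodes the ligand by which remnants bind hepatic receptors, and it is made by macrophages as well as hepatocytes. Its brighter probe set had 13.90, 13.82, 13.98 and 13.98 in L. brevis 1 to 4 and 13.82, 13.85, 13.90 and 13.83 in control 1 to 4. L. brevis 3 and 4 lay above the controls and L. brevis 2 was the lowest of all 8 livers. The difference was 0.07 (SE 0.04, 95% interval -0.04 to 0.17; adjusted p = 0.609, limma; exact permutation p = 0.257), and the other Apoe probe set was flat at 5.94. Macrophage and Kupffer cell markers had 6 of 8 varying members higher and 2 lower (of 9 measured, none below the median signal), with a mean signal over the list of 9.17 to 9.44 in L. brevis and 9.0 to 9.40 in control livers. Their part in the Apoe signal was not tested.

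Lipc was the member at an unadjusted p under 0.05 at its brightest probe set, with a difference of the same size as that of Apoa2 in the opposite direction. Its signals were 10.97, 11.13, 11.34 and 11.32 in L. brevis 1 to 4 and 10.91, 10.96, 11.02 and 10.99 in control 1 to 4. L. brevis 2, 3 and 4 lay above all controls, and L. brevis 1 lay among them. The difference was 0.22 (SE 0.09, 95% interval 0.0043 to 0.44), 1.17-fold higher, with an unadjusted p of 0.0468, an adjusted p of 0.412 (limma) and an exact permutation p of 0.0857. Lipc also rose with the GAPDH 5' minus 3' signal over the livers of both diets (Pearson r = 0.85, exact permutation p = 0.00947, adjusted 0.0426). Its Spearman rho was 0.67 (exact permutation p = 0.0831, adjusted 0.187), and the permutations took no account of diet. The r was 0.89 without the 2 livers farthest from the median GAPDH value and 0.69 for deviations from diet means. With that covariate the difference was 0.06 (SE 0.10), and it was 0.08 without L. brevis 3 and 4, the livers with the highest GAPDH value and also with the highest Lipc signals. Since the GAPDH value largely split by diet, these fits cannot tell a diet difference from a difference in RNA or labelling quality. L. brevis 3, the highest for Lipc, stood apart in the mean of adipose markers, which was 7.18 over 5 genes, beside 6.47 to 6.65 in the other L. brevis livers and 6.39 to 6.53 in control livers. Of these 5 genes 3 varied, and 3 lay below the median signal. In L. brevis 3 Cfd stood at 8.61, Fabp4 at 8.52 and Adipoq at 6.58, while Plin1 was flat. Without L. brevis 3 the Lipc difference was 0.17. The unadjusted limma p stayed under 0.05 without L. brevis 1, where the difference was 0.29, and was 0.0653 to 0.111 with any other single liver left out. Under quantile normalization the difference was 0.12 (limma, unadjusted p = 0.123). The genes most like Lipc over the arrays were Acadsb, a mitochondrial acyl-CoA dehydrogenase, and Hfe, a regulator of iron uptake (r = 0.98 each).

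**Figure D3:**
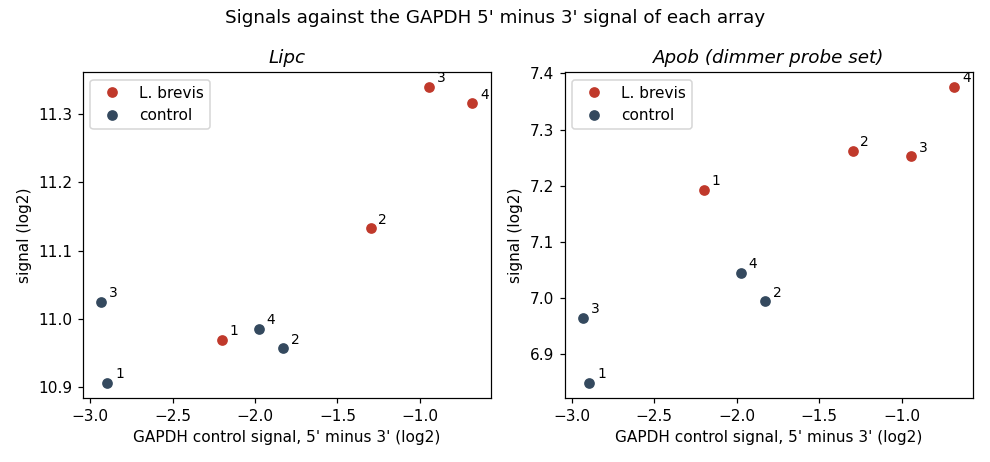
Signals (log2) of Lipc and of the dimmer Apob probe set against the 5' minus 3' signal of the GAPDH array controls (log2), 1 point per liver with its replicate number, L. brevis red and control dark. L. brevis 2, 3 and 4 are farthest right in both panels and above all controls, with r = 0.85 for Lipc and 0.88 for Apob over the 8 livers.

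**Figure D4:**
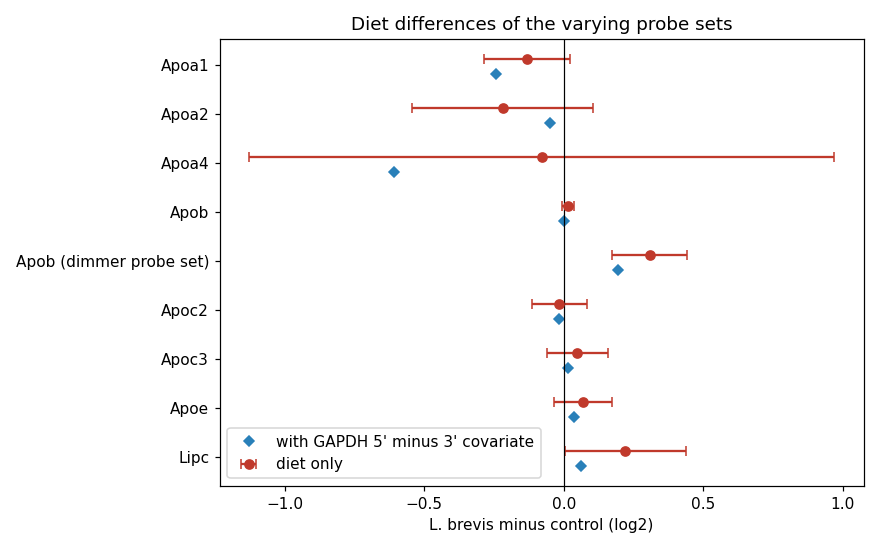
Diet differences (L. brevis minus control, log2) of the 9 varying probe sets with 95% intervals from limma (red, n = 4 each), and the same difference with the GAPDH 5' minus 3' covariate (blue). The covariate moved Lipc to 0.06, the dimmer Apob probe set to 0.19, Apoa1 to -0.24 and Apoa4 to -0.61. The covariate largely split by diet, so its part and that of diet cannot be told apart.

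The promoters of the 2 genes whose values carry these descriptions, Lipc for its unadjusted p under 0.05 at its brightest probe set and Apoa4 for the widest spread between rats, are shown from RefSeq (build GRCr8), 250 bases before to 50 bases after the start of the gene. Capitals mark matches, on either strand, to AGGTCA, the nuclear receptor half-site, to GTTAAT, the half-site of HNF1, and to TATAAA, the TATA box. The Lipc promoter, chr8:80516236-80516535 on the minus strand:
Lipc: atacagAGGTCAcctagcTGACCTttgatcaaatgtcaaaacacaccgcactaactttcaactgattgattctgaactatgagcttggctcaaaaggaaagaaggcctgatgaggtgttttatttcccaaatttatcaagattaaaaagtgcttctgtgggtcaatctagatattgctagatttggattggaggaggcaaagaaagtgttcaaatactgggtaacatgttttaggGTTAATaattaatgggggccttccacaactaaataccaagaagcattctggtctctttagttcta
The Apoa4 promoter, chr8:55435529-55435828 on the plus strand:
Apoa4: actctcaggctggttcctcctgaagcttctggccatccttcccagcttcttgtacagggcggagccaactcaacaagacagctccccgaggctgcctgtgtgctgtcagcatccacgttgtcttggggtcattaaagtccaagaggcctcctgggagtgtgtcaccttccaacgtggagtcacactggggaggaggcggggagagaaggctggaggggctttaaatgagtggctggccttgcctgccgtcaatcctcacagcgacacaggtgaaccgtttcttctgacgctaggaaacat
Lipc held AGGTCA 244 bases before the start and its reverse complement 232 bases before it, and GTTAAT 15 bases before it. None of the 3 motifs was in the Apoa4 window. Of 33365 promoters of this length, 16.2% held AGGTCA, 7.46% GTTAAT and 14.2% TATAAA. Promoters of 6 of the 10 genes were in the table; Apoc2 and Apoa5 held TATAAA at 40 and 30 bases before a start, and in that Apoa5 window AGGTCA lay 103 and the reverse complement of GTTAAT 158 bases before the start. Apoc1 held GTTAAT 122 bases before its first listed start. A match is a description of the letters and not a bound site.

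Several members are neighbours in the rat genome. In the RefSeq annotation Apoa1, Apoc3, Apoa4 and Apoa5 follow each other on chromosome 8, and Apoc2, Apoc1 and Apoe lie on chromosome 1 with Apoc4 between Apoc2 and Apoc1. Neighbours did not share a course over the arrays in any pair that passed a test. Pearson's r over the 8 arrays was 0.46 for Apoa4 and Apoc3, 0.0026 for Apoa1 and Apoc3, 0.027 for Apoa1 and Apoa4, and 0.46 for Apoc2 and Apoe. Over all 28 pairs of the 8 varying members the highest r was that of Apoe and Lipc (r = 0.80, exact permutation p = 0.0203, adjusted 0.484; rho = 0.55, exact permutation p = 0.171, adjusted 0.909). It was -0.12 without the 2 livers farthest from the median of Apoe, so it rests on those livers. Apoc3 and Lipc had the highest rho (0.88, exact permutation p = 0.00724, adjusted 0.203; r = 0.71, exact permutation p = 0.0506, adjusted 0.484).

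The genes that act around these proteins gave no call either. Over 5 lists grouped by role, 0 varying genes had an adjusted p under 0.05 in limma. Of other apolipoproteins and bound proteins 4 of 7 measured genes varied, 3 higher and 1 lower, with a median of 0.25 and none at an unadjusted p under 0.05. Apon differed by 0.43 (SE 0.27), Pon1, the paraoxonase of HDL, by 0.32 (SE 0.13), and Apom, the HDL carrier of sphingosine phosphate, by -0.29 (SE 0.15), while Apoh was flat at 13.82. Of the lipoprotein assembly genes 6 of 12 varied, 4 higher and 2 lower, with a median of 0.08. Of these 6, 1 was at an unadjusted p under 0.05, beside 22.9% of all varying probe sets. It was Sar1b, a small GTPase of COPII vesicles, needed for chylomicron and VLDL export. Sar1b had 10.80 to 10.85 in L. brevis and 10.37 to 10.61 in control livers (0.37, SE 0.05, adjusted p = 0.133, limma). Mttp, which loads lipid onto ApoB, differed by -0.05 (SE 0.21), and P4hb, its partner subunit, by 0.38 (SE 0.18). Apobec1, the editing enzyme of the Apob transcript, differed by 0.07 (SE 0.03).

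Of plasma lipid transfer proteins, lipases and their regulators 9 of 11 varied, 4 higher and 5 lower, with a median of -0.11 and none at an unadjusted p under 0.05. Lcat differed by 0.06 (SE 0.04) and Pltp, the phospholipid transfer protein, by 0.46 (SE 0.30). Angptl4, an inhibitor of lipoprotein lipase, ran from 7.14 to 11.46 in L. brevis and from 8.94 to 11.48 in control livers. Lipoprotein receptors had 5 varying genes of 10, 1 higher and 4 lower, with a median of -0.22. Of these 5, 1 was at an unadjusted p under 0.05, beside 22.9% of all varying probe sets. It was Lrp1, a remnant receptor, with 9.92 to 10.27 in L. brevis and 10.30 to 10.55 in control livers (-0.30, SE 0.09, adjusted p = 0.347, limma). Scarb1, the HDL receptor, differed by -0.06 (SE 0.19), but by 0.29 at its other varying probe set.

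Transcription factors known to act on apolipoprotein genes had 18 varying genes of 23, 9 in each direction, with a median of -0.02. At an unadjusted p under 0.05 there were 2 higher and 4 lower, beside 9.44% and 13.5% of all varying probe sets in those directions. The higher 2 were Rora, with 7.27 to 7.62 in L. brevis and 6.31 to 6.65 in control livers (0.86, SE 0.11, adjusted p = 0.106, limma), and Rxra, the partner of many nuclear receptors (0.48, SE 0.18). The lower 4 were Nr1h4, the gene of FXR (-0.54, SE 0.19), Mlxipl (-0.35, SE 0.09), and Nr2f1 and Nr2f2, the COUP factors, which bind the same elements as HNF4A. Nr2f1 had 6.35 to 6.52 in L. brevis and 6.55 to 6.72 in control livers (-0.27, SE 0.06, adjusted p = 0.267, limma). Nr2f2 had 9.29 to 9.57 in L. brevis and 9.59 to 9.72 in control livers (-0.22, SE 0.06, adjusted p = 0.347, limma), but 0.42 at its other varying probe set. Hnf4a, a main activator of the apolipoprotein genes, differed by -0.05 (SE 0.07), and Creb3l3, which in mouse activates Apoa4, by 0.19 (SE 0.15). Endothelial markers, of which 5 of 5 varying members were lower (of 6 measured, none below the median signal), averaged 8.62 to 8.81 in L. brevis and 8.80 to 9.27 in control livers. Their part in the values of Nr2f1, Nr2f2 and Lrp1, genes that endothelial cells can also express, was not tested.

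**Figure D5:**
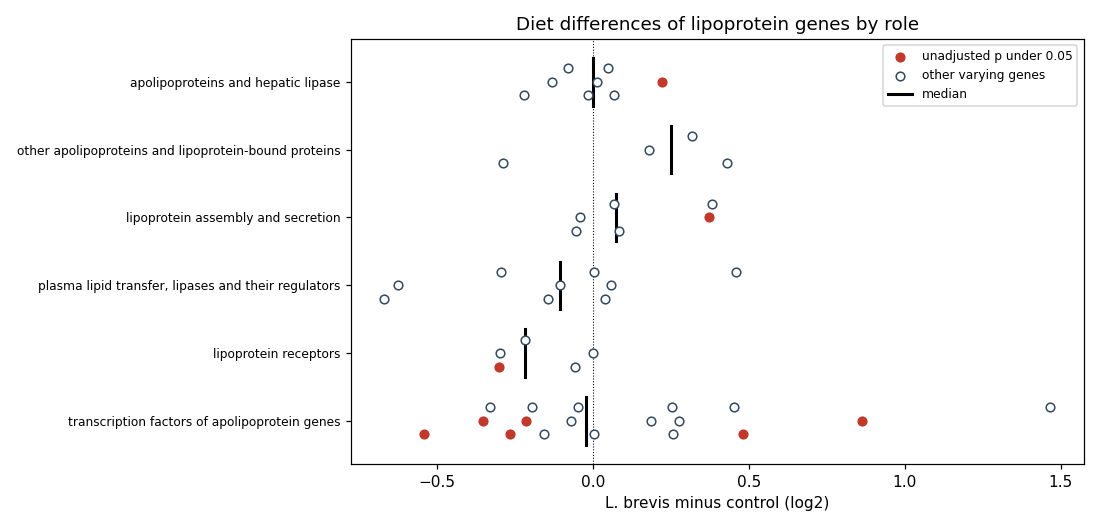
Diet differences (L. brevis minus control, log2) of the varying genes in each role, 1 point per gene at its brightest probe set, filled where the unadjusted limma p is under 0.05, with the black bar at the median. The apolipoproteins and Lipc centre on 0, with medians of 0.25 for other lipoprotein-bound proteins and -0.22 for receptors.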

How the data were processed

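Biotin-labelled RNA of 8 livers was hybridised to Affymetrix 3' arrays, per the labels' protocols. The authors deposited log2 signals per probe set, already normalized. How they were summarised and normalized is not given in the labels. The table held 31099 probe sets, of which 57 array controls stayed outside the tests. Of the rest, the platform annotation gave 20826 1 gene symbol, 436 several and 9780 none. A gene is represented by its probe set with the highest mean.

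For the difference, limma 3.58.1 (R 4.3.3; lmFit, and eBayes with an intensity trend) was run over all 31042 probe sets. Tests were two-sided and p-values adjusted by Benjamini-Hochberg. Of the 44 probe sets called, 37 were flat. Single genes also had exact two-sided permutation tests over 70 assignments. Per the labels, replicates are biological, 4 for each diet. Within a group, the SD of the difference between 2 arrays ran from 0.401 to 0.817 log2. The members, lists, tests and named genes (all 10 members, genes of the role lists at an unadjusted p under 0.05 or of textbook role, and the 2 most similar genes per member) were chosen with earlier results of these data known. The promoter motifs were chosen after the promoters were seen, and GTTAAT was searched in place of a longer HNF1 motif.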

Additional observations from a re-analysis of the deposited data

How the results depend on the processing

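No member passed an adjusted p of 0.05 under any of the alternatives run, where the smallest adjusted p, 0.0642, was that of the dimmer Apob probe set with a replicate block. Those alternatives were varying probe sets alone, quantile normalization, median centring, no intensity trend, a filter on signal, array weights, the replicate block, the GAPDH covariate, each liver left out and L. brevis 3 and 4 left out together, the last chosen after seeing the data. Median centring subtracted each array's median over the varying probe sets from the flat probe sets too. The flat probe sets thus took on a diet shift, and adjusted p-values under that setting cannot decide whether a member differed. At their brightest probe sets, members at an unadjusted p under 0.05 numbered 1 in the fit as reported, 2 under quantile normalization, 2 with the replicate block, 0 without L. brevis 3 and 4, and 0 to 2 with single livers left out. In the fit as reported 22.9% of all varying probe sets were at that level. The share under the other settings was not counted, so these counts cannot be read as a result about the members. The members behind these counts changed: Lipc in the fit as reported, Apoa1 and Apoc2 under quantile normalization, Apoa2 and Lipc with the block, Apoa1 with the GAPDH covariate or without control 1, Apoe without L. brevis 2, and the brighter Apob probe set and Lipc without L. brevis 1. Same-numbered livers correlated in their deviations from diet means at 0.36, 0.20, 0.078 and 0.38. L. brevis 1, 2 and 4 matched their own number best and L. brevis 3 matched control 4, and since 1 pair was under 0.1 and the labels state no pairing, the block was kept as an alternative. With it Apoa2 stood at -0.22 (unadjusted p = 0.0467, limma), and the SE of the dimmer Apob probe set was 0.017, against 0.056 without it. The SE of Apoa4 was 0.14 with the block and 0.43 without it. Of 154 member differences recomputed, 8 changed sign: Apoc3 (-0.025, quantile normalization), Apoc2 (0.021, median centring; 0.0065 and 0.0067 without L. brevis 2 and control 3), Apob at its brighter probe set (-0.00031, GAPDH covariate) and Apoa4 (0.22, 0.074 and 0.0098 without control 4, L. brevis 1 and L. brevis 3). Under median centring every member difference moved up by the same amount, that of Apoc2 from -0.016 to 0.021. The cause of the other sign changes was not tested. With single livers left out, Apoa4 ran from -0.37 to 0.22 and Apoc2 from -0.046 to 0.0067. Over all alternatives Lipc ran from 0.062 to 0.31 and the dimmer Apob probe set from 0.19 to 0.34. The mean of both Apob probe sets differed by 0.16 (exact permutation p = 0.0286). Flat and near-top signals limit what Apoc1, Apoa5 and the brighter Apob probe set can show.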

Other observations

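Other members also had close matches in their course over the 8 arrays, named by the same rule and given as descriptions. Apoa2 was most like Gcgr, the glucagon receptor gene (r = 0.98), and Galt, an enzyme of galactose use (r = 0.95). Apoc3 was most like C8g, a subunit of complement C8 (r = 0.97), and Nfe2l2, the gene of the stress factor NRF2 (r = 0.95). Apoc2 was most like Fgfr2 (r = 0.94) and Scarb1 (r = 0.94), Apoe most like RT1-N2 (r = 0.96) and Fam111a (r = 0.93), Apoa1 most like Arsb (r = 0.92) and Tcp11l2 (r = 0.91), and the brighter Apob probe set most like Ugdh (r = 0.94) and Lyrm4 (r = 0.92). Each r is the highest of 2263 genes over 8 livers, and no test was attached to it.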
